A study of Mus musculus with 4 samples.

Results

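The nuclear-encoded genes of respiratory complexes I, II, III and V were examined in BEKO, a mouse thymic lymphoma cell line of wild-type genotype. The 74 members are every row of the deposited table whose symbol starts with Nduf, Uqcr or Atp5, or is Sdha, Sdhb, Sdhc or Sdhd. Ndufa4 and Ndufa4l2 were left out, and the table holds 25630 rows in all. The members are 37 rows for structural subunits of complex I and 8 for its Ndufaf assembly factors. Ndufb4 and its copy Ndufb4c count as separate rows of the 37. The others are 4 subunits of complex II, 8 of complex III and 17 rows of complex V. RNA was sequenced from 2 libraries of cells at low density and 2 libraries of cells at high density. How dense the cells were and how long they grew is not in the labels, nor whether the libraries were made from different cultures. P-values here are therefore set against the spread of these libraries alone, and that spread may be technical.

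Oxidative phosphorylation takes place in the inner mitochondrial membrane. Complex I takes electrons from NADH and complex II takes them from succinate. Both pass them to coenzyme Q, and complex III passes them on to cytochrome c. Complexes I and III pump protons, and complex V, the ATP synthase, uses the returning protons to make ATP. Most subunits are encoded in the nucleus, and a few membrane subunits of complexes I, III and V are encoded in mitochondrial DNA and were not analysed here. Activated and dividing lymphocytes use this system together with glycolysis.

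RNA levels are TPM, a share of all transcripts that is scaled by transcript length and sums to the same total in each library. A change is therefore relative to all other RNA in the table, and in a bulk sample fewer cells of a type and less RNA per cell cannot be told apart. Changes were tested on log2(TPM + 1), high minus low density, with limma, and a row was called at a Benjamini-Hochberg adjusted p under 0.05 over all 10936 rows tested. A row was tested if its mean over the 4 libraries was at least 1 TPM. Of the 74 members, 73 passed. Ndufs5, a structural subunit of complex I, is listed at 0 in all 4 libraries, and no change is given for it. Whether it was counted under another symbol or lost in the counting could not be settled.

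The 7 T cell markers examined were all at or above 1 TPM in each library, with a summed level of 5077 to 6224 TPM. Single T cell markers differed between the densities. Rag1, a recombinase of immature lymphocytes, was at 609 and 480 TPM at low density and 185 and 182 TPM at high density, and Ptprc, which encodes CD45, was at 466 and 367 TPM and at 636 and 660 TPM. The part of these differences in the results was not tested. Summed markers of B cells (0.243 to 1.30 TPM), epithelium (0.213 to 0.837 TPM) and erythroid cells (at most 0.0431 TPM) were near 0. Of 4 macrophage markers, only Cd68 reached 1 TPM in all libraries (14.9 and 17.7 TPM at low density, 9.36 and 8.46 TPM at high density), and Lyz2 was listed at 0. Summed fibroblast markers were 44.9 TPM in low density replicate 1, carried by Col1a1 and Col1a2, against 0.263 to 0.536 TPM in the other 3 libraries. Without that library the median log2 fold change of the members was −0.55, against −0.43 with it. The median change of all rows tested was 0.12, and each change below is to be read against that shift.

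Genes of all 4 complexes lay mostly below their low density level at high density, by small amounts. The 73 tested members had a median log2 fold change of −0.43, and 65 of them had a negative value. Summed over all members, the level was 25591 and 30359 TPM in low density replicates 1 and 2 and 20722 and 19487 TPM in high density replicates 1 and 2. This corresponds to 2.56% and 3.04% of the total at low density and to 2.07% and 1.95% at high density. Limma called 6 members lower (8.22% of those tested, where 2.11% of all rows were called lower) and 1 member higher (1.37%, where 4.57% of all rows were called higher). Rows with short transcripts and high levels were called lower more often than all rows. Among 336 tested rows under 1000 bases with a mean of at least 100 TPM, 6.85% were called lower and 2.98% higher. Of the 39 members under 1000 bases 12.8% were called lower, and of the 34 longer ones 2.94%. In 56 members (76.7%) both high density libraries lay below both low density libraries, which held for 20.0% of all rows tested. In 3 members (4.11%) both lay above, against 34.7% of all rows, and in 14 members the groups overlapped.

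**Figure D1:**
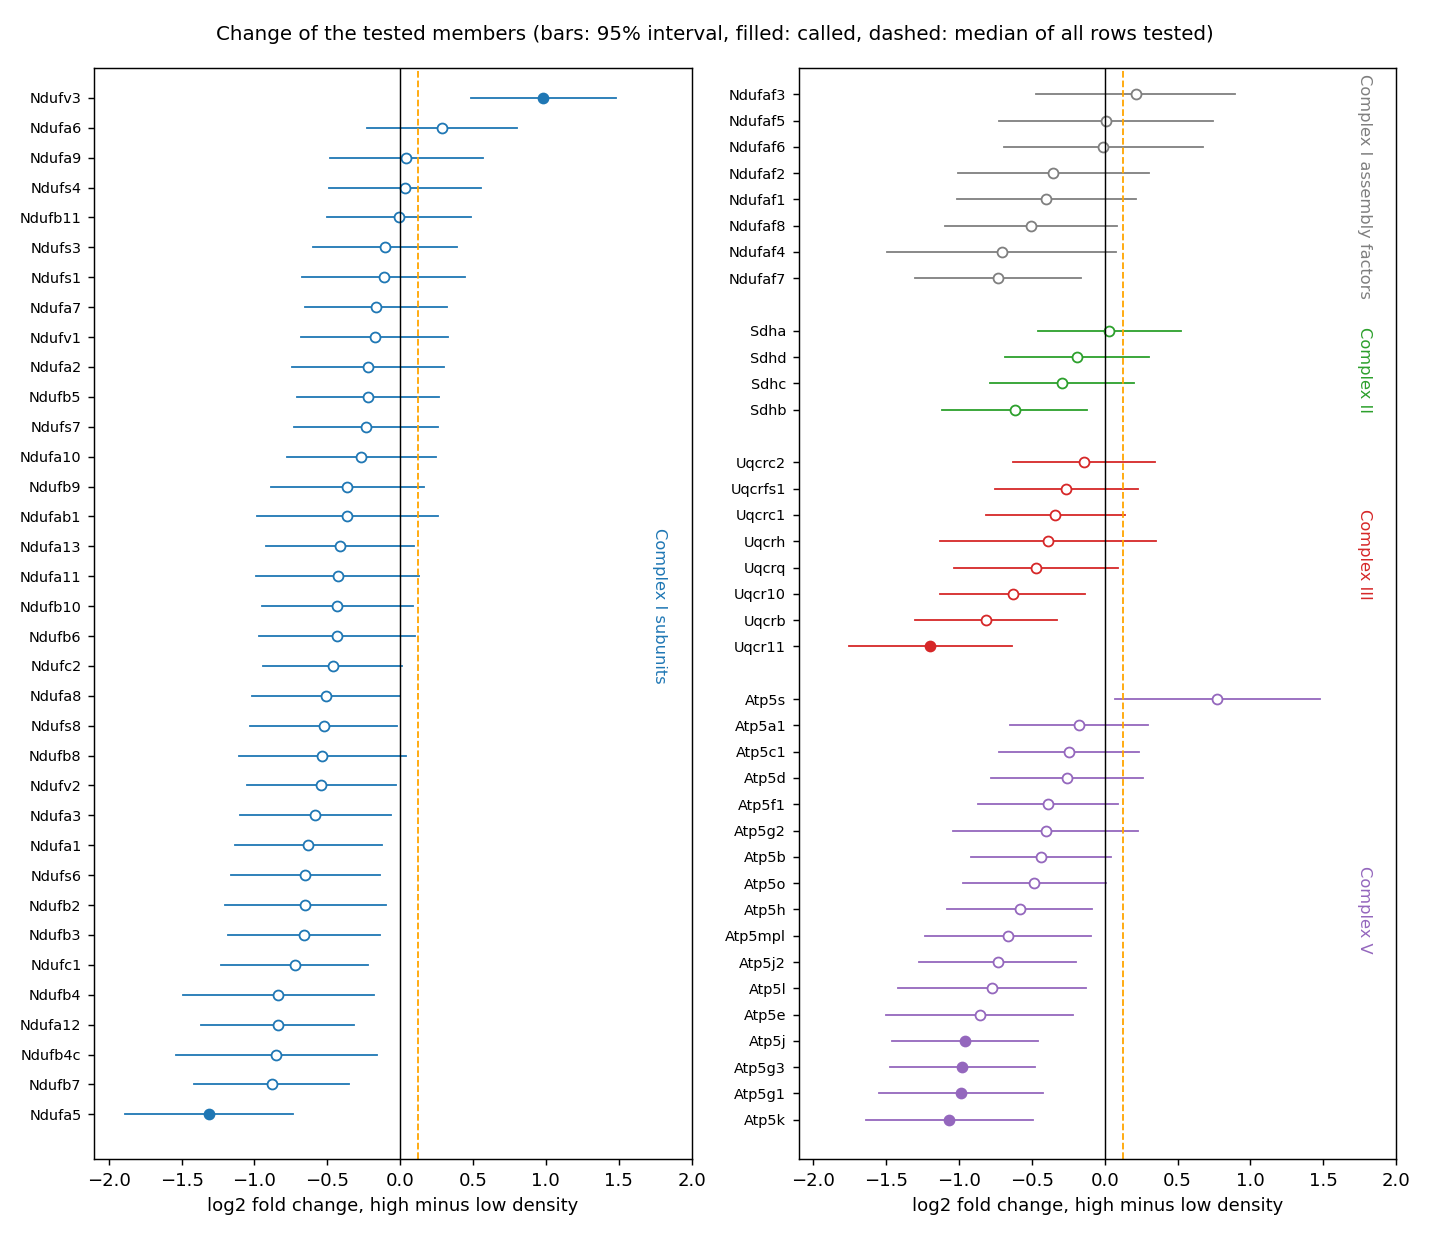
Log2 fold change (high minus low density, on log2(TPM + 1)) of the tested members, 1 left out, grouped by complex. Points are limma estimates from 2 libraries per group, bars are 95% intervals, filled points are the 7 called members, and the dashed line is the median of all rows tested (0.12). Most points lie left of 0, and the intervals of most members include 0.

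The 7 called members were Ndufa5 and Ndufv3 of complex I, Uqcr11 of complex III, and Atp5k, Atp5g1, Atp5g3 and Atp5j of complex V. Only Ndufv3 was higher. All 7 calls were lost without low density replicate 2 (adjusted p in limma from 0.327 to 0.712) and without the filter on low values. Without low density replicate 1 the calls on Ndufv3, Atp5g1, Atp5g3 and Atp5j were lost as well (0.283, 0.465, 0.201 and 0.137). When each library was centred on its median, or after quantile normalisation, Ndufa5 and Atp5g1 kept their calls and the other 5 did not. With limma run without the variance trend, only Ndufa5 kept its call (adjusted p = 0.0416), and Atp5g1 was at 0.0761. Under the alternatives run, between 59 and 69 members had a negative value.

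**Figure D2:**
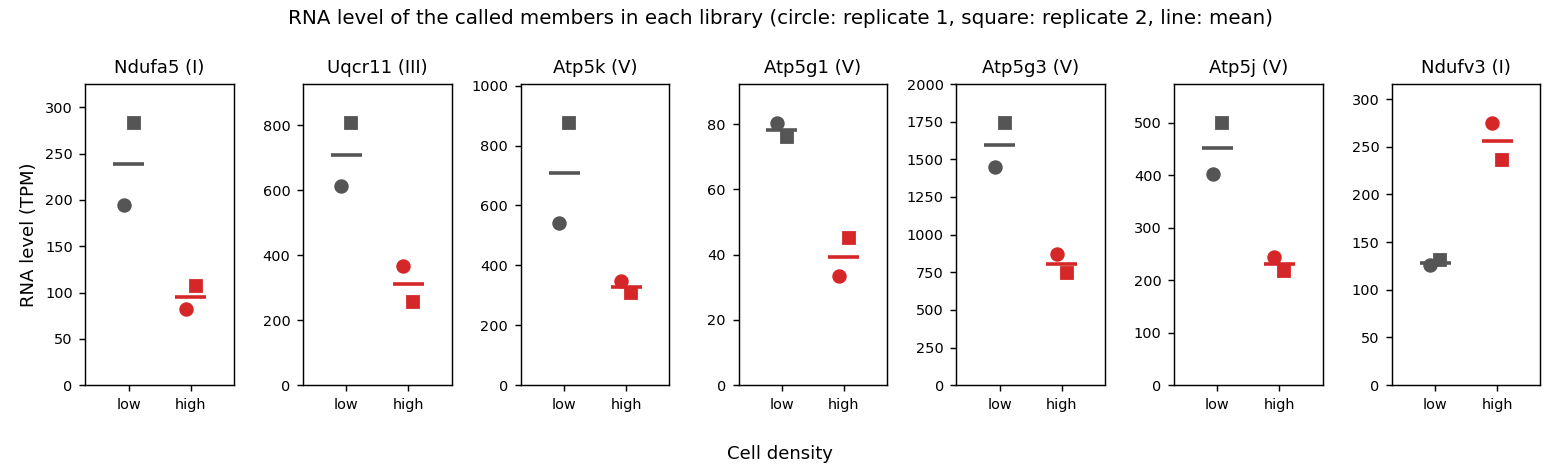
RNA level (TPM, linear axes from 0, a separate scale for each gene) of the 7 called members at low and high density. Circles are replicate 1, squares replicate 2 and lines the group means. In each panel the 2 high density libraries lie apart from the 2 low density libraries, below them for 6 genes and above them for Ndufv3.

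The upstream sequences of the members were searched for letters bound by transcription factors, since most members (65 of 73) had negative values. Of the 74 members, 62 were matched to the RefSeq promoter table (build GRCm38.p6), and the 250 bases before the most upstream start were searched on both strands. The NRF1 core CGCATGCG, which reads the same on both strands, was found in 6 of 62 member windows (9.68%) and in 1.58% of the windows of 27025 genes. These are all genes of the promoter table, tested here or not, and they were not matched to the members in base composition. The cyclic AMP element TGACGTCA was found in 4 (6.45%, against 1.60% of all windows), in Ndufa10, Ndufa11, Ndufb2 and Uqcrfs1. The ETS motif CCGGAAGT was found in 3 (4.84%, against 2.92%), in Uqcrh, Uqcr11 and Atp5h. AAGATGGCG, bound by YY1, was found in 0 windows (0.592% of all), and so rare a run of letters can be missing from 62 windows at that share. Bases after the start were not searched, so matches there would be missed. The GC box GGGCGG was found in 24 (38.7%, against 33.0%), and ACGTG, the core of the hypoxia response element, in 14 (22.6%, against 16.5%). A match is only a run of letters, and binding was not measured here.

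The 6 NRF1 matches are shown with up to 11 bases on either side, 5′ to 3′ on the strand of the gene, with the motif in capitals. They lie at chr2:36049339-36049358 (minus strand, Ndufa8), chr17:56717692-56717721 (plus, Ndufa11), chr4:24897960-24897989 (plus, Ndufaf4), chr15:102671070-102671099 (minus, Atp5g2), chr5:108434430-108434459 (minus, Atp5k) and chr9:44920965-44920992 (minus, Atp5l) of GRCm38.p6. The ETS match of Uqcr11, which has the second largest fall among the members, follows (chr10:80406869-80406898, minus strand).
Ndufa8: gtcgctggagaCGCATGCGc
Ndufa11: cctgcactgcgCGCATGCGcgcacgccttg
Ndufaf4: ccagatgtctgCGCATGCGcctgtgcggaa
Atp5g2: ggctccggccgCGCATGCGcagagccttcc
Atp5k: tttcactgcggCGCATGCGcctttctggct
Atp5l: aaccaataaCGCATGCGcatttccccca
Uqcr11: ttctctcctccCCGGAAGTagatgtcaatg
In Ndufa11, Ndufaf4, Atp5g2 and Atp5k the NRF1 match begins 59, 112, 41 and 49 bases before the start, in Ndufa8 it begins 9 bases and in Atp5l 241 bases before it. The log2 fold changes of these 6 genes run from −1.07 (Atp5k) to −0.40 (Atp5g2), within the range of the other members, and Atp5k was the only one called.

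Complex I is built from catalytic core subunits, which carry the flavin and the iron-sulfur clusters, and from many accessory subunits around them. Among 36 tested structural subunits the median log2 fold change was −0.43, with 1 called lower and 1 called higher. Each call is 2.78% of those tested, where 2.11% of all rows were called lower and 4.57% higher. The 7 nuclear core subunits all had negative values, with a median of −0.18, and 0 were called. An unadjusted limma p under 0.05 was reached by 2 of them, both lower, which held for 7.76% of all rows tested in that direction. Ndufs1, the largest iron-sulfur subunit, was at 104 and 91.8 TPM at low and at 75.5 and 108 TPM at high density, so that the groups overlapped. Ndufs3, a core subunit that joins the complex early in assembly, was at 148 and 152 TPM at low and 138 and 141 TPM at high density. The largest differences among the core subunits were those of Ndufv2 and Ndufs8, both iron-sulfur proteins. Ndufv2 was at 213 and 274 TPM at low and at 167 and 165 TPM at high density (log2 fold change −0.54 ± 0.23 SE, adjusted p = 0.189 in limma). Ndufs8 was at 225 and 279 TPM at low and at 170 and 177 TPM at high density (−0.53 ± 0.23 SE, adjusted p = 0.194 in limma).

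Ndufv3, a small accessory subunit beside the flavin-binding Ndufv1, was the only called member of the complex that rose. Of the 36 tested subunits, 4 had positive values, the others being Ndufa6 (0.29), Ndufa9 (0.042) and Ndufs4 (0.034). It was at 126 and 132 TPM at low density and at 275 and 236 TPM at high density. Both high density libraries lay well above both low density libraries, and the log2 fold change was 0.98 ± 0.23 (SE, adjusted p = 0.0258 in limma). Its level relative to Ndufv1 was 0.502 and 0.538 in the low density libraries and 1.41 and 0.960 in the high density libraries. With median centring the log2 fold change was 0.80 (adjusted p = 0.109 in limma), and after quantile normalisation it was 0.98 (0.0526).

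Accessory subunits of the A group were measured for 13 genes, with a median log2 fold change of −0.41. Of these, 1 was called lower (7.69%, against 2.11% of all rows). Ndufa5, an accessory subunit of the arm that reaches into the matrix, had the largest fall of all members. It was at 194 and 283 TPM at low density and at 82.4 and 107 TPM at high density. Both high density values were below both low density values, a 2.52-fold lower mean (log2 fold change −1.31 ± 0.26 SE, adjusted p = 0.0135 in limma). Ndufa12, another subunit of the matrix arm, was at 172 and 191 TPM at low and at 88.9 and 114 TPM at high density, without overlap, and missed the threshold (adjusted p = 0.0588 in limma). Ndufa6 had the highest level of the complex and a positive change, at 446 and 617 TPM at low and 647 and 634 TPM at high density. Its log2 fold change was 0.29 ± 0.24 (SE, adjusted p = 0.501 in limma), and low density replicate 1 was the lowest library. Ndufa9, which binds near the coenzyme Q site, overlapped between the groups with 203 and 197 TPM at low and 177 and 239 TPM at high density.

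Subunits of the B and C groups belong to the membrane arm. All 13 tested had a negative value, from −0.88 to −0.0074, with a median of −0.54, and 0 were called (6 were lower at an unadjusted limma p under 0.05, against 7.76% of all rows). In 12 of the 13 both high density libraries lay below both low density libraries, against 20.0% of all rows. Ndufb7 was at 424 and 588 TPM at low and at 250 and 292 TPM at high density. Its mean was 1.87-fold lower, just outside the threshold (log2 fold change −0.88 ± 0.24 SE, adjusted p = 0.0520 in limma). With 1 library left out its log2 fold change ran from −1.12 (without low density replicate 1) to −0.65 (without low density replicate 2). The adjusted p in limma was 0.0314 with a filter at 5 TPM and 0.0221 with a replicate block. It was 0.111 without the variance trend and 0.133 with length and GC content removed. Ndufb4 and its copy Ndufb4c are so alike that reads could be shared between them, and their counting is not given. They were at 29.3 and 44.3 TPM and at 20.2 and 34.3 TPM at low density, against 16.9 and 23.0 TPM and 15.5 and 13.0 TPM at high density. Ndufb11, by contrast, was at 302 and 327 TPM at low and 340 and 288 TPM at high density, with overlapping groups and a log2 fold change of −0.0074 (95% interval −0.50 to 0.48).

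The 8 Ndufaf assembly factors help to build complex I and are not part of it. Limma called 0 of the 8, and their median log2 fold change was −0.38. At an unadjusted limma p under 0.05, 1 was lower, against 7.76% of all rows. The high density libraries differed here. Against the mean of the low density libraries the median of the 8 was −0.69 in high density replicate 1 and −0.10 in high density replicate 2. Without high density replicate 2, 5 of the 8 were called lower, where 10.9% of all rows were. Without high density replicate 1 only Ndufaf7 was called lower, where 6.81% of all rows were. Ndufaf7, a mitochondrial methyltransferase, was at 37.0 and 35.7 TPM at low and at 22.4 and 20.5 TPM at high density (log2 fold change −0.73 ± 0.26 SE, adjusted p = 0.116 in limma). Ndufaf4 was at 38.8 and 42.9 TPM at low density but at 15.9 and 37.7 TPM at high density. Ndufaf8, the factor of highest level, was at 83.8 and 108 TPM at low and 55.2 and 80.4 TPM at high density. Ndufaf5, Ndufaf6 and Ndufaf3 had log2 fold changes of 0.0074, −0.011 and 0.21 with overlapping groups.

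Complex II, the succinate dehydrogenase, is the only one of these complexes that also works in the tricarboxylic acid cycle. None of its 4 subunits was called by limma, and the median log2 fold change was −0.24. At an unadjusted limma p under 0.05, 1 of the 4 was lower, against 7.76% of all rows. Sdha, the flavoprotein that oxidises succinate, was at 344 and 308 TPM at low and at 314 and 352 TPM at high density. The groups overlapped, with a log2 fold change of 0.032 (95% interval −0.46 to 0.52). Sdhb, its iron-sulfur partner in the catalytic head, was at 389 and 458 TPM at low and at 255 and 296 TPM at high density, without overlap. Its mean was 1.54-fold lower (log2 fold change −0.62 ± 0.23 SE, adjusted p = 0.127 in limma). Sdhb relative to Sdha was 1.13 and 1.49 in the low density libraries and 0.811 and 0.839 in the high density libraries. The membrane anchors Sdhc and Sdhd were between them. Sdhc was at 202 and 227 TPM at low and 165 and 184 TPM at high density. Sdhd was at 257 and 300 TPM at low and 234 and 252 TPM at high density.

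In complex III all 8 members had a negative value, with a median of −0.43 and 1 called lower (12.5%, against 2.11% of all rows). The core proteins Uqcrc1 and Uqcrc2 and the Rieske iron-sulfur protein Uqcrfs1 had values between −0.34 and −0.14, and the 5 small subunits between −1.20 and −0.39. Uqcr11, the smallest subunit of the complex, was at 612 and 807 TPM at low density and at 366 and 255 TPM at high density. Both high density libraries were below both low density libraries, a 2.29-fold lower mean (log2 fold change −1.20 ± 0.26 SE, adjusted p = 0.0178 in limma). Uqcrb, which binds coenzyme Q with cytochrome b, was at 261 and 253 TPM at low and at 150 and 141 TPM at high density. The replicates were close together and the groups far apart, yet it fell just short of a call (log2 fold change −0.82 ± 0.22 SE, adjusted p = 0.0507 in limma). Uqcr10 was at 702 and 848 TPM at low and at 463 and 533 TPM at high density (adjusted p = 0.118 in limma). Uqcrc2 was at 327 and 319 TPM at low and 312 and 274 TPM at high density, so that 3 of the 4 libraries were nearly level. Uqcrh, the acidic hinge protein beside cytochrome c1, had the highest mean level of the complex and the widest spread. It was at 986 and 1207 TPM at low density and at 1274 and 544 TPM at high density, so that the high density libraries lay on opposite sides of the low density pair. Without high density replicate 1 it was called lower, with a log2 fold change of −1.001 (adjusted p = 0.00812 in limma), and without high density replicate 2 the value was 0.22.

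Complex V had 4 called members, all lower, among 17 tested (23.5%, against 2.11% of all rows called lower), and a median of −0.59. Without high density replicate 2 its median was −0.45, beside −0.46 for complex I and −0.55 for complex III. Its summed level was 11485 and 13662 TPM at low and 8680 and 7780 TPM at high density. The catalytic F1 part has 5 genes, with a median of −0.26 and 0 called. At an unadjusted limma p under 0.05, 1 of the 5 was lower, against 7.76% of all rows. Atp5b, the catalytic beta subunit and the member of highest level, was at 2573 and 2316 TPM at low and at 1767 and 1842 TPM at high density. The groups did not overlap, and the mean was 1.36-fold lower (log2 fold change −0.44 ± 0.22 SE, adjusted p = 0.257 in limma). Atp5a1, the alpha subunit, was at 1119 and 1032 TPM at low and 970 and 929 TPM at high density, the smallest change of the F1 genes (−0.18). Atp5c1, the gamma subunit that forms the rotating shaft, was at 444 and 484 TPM at low and 404 and 379 TPM at high density (−0.24). Atp5e, the epsilon subunit, differed most, but also between replicates, with 1093 and 1977 TPM at low and 942 and 696 TPM at high density (adjusted p = 0.104 in limma).

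The rotor ring of complex V is made of c subunits, for which 3 genes encode the same mature protein behind different import sequences. The gene Atp5g3 made up 93.1% to 95.2% of their summed TPM in each library, Atp5g1 3.66% to 5.65% and Atp5g2 0.775% to 1.28%. Reads from the shared coding part could be split between them, and the counting is not given. Atp5g3 was at 1449 and 1742 TPM at low density and at 873 and 743 TPM at high density. All high density values were below all low density values, a 1.97-fold lower mean (log2 fold change −0.98 ± 0.23 SE, adjusted p = 0.0260 in limma). Atp5g1 was at 80.4 and 76.0 TPM at low and at 33.6 and 45.1 TPM at high density, again without overlap (1.99-fold lower, −0.99 ± 0.26 SE, adjusted p = 0.0428 in limma). Atp5g2 was at 14.4 and 14.2 TPM at low and at 10.9 and 10.2 TPM at high density (−0.40 ± 0.29 SE, adjusted p = 0.436 in limma). Relative to Atp5b, the 3 genes together were at 0.600 and 0.791 at low density and at 0.520 and 0.433 at high density.

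The peripheral stalk holds the catalytic head still against the rotor, and its 4 genes had a median of −0.53. Atp5j, coupling factor 6 of the stalk, was at 403 and 499 TPM at low and at 243 and 218 TPM at high density. The high density pair lay below the low density pair, a 1.96-fold lower mean (log2 fold change −0.96 ± 0.23 SE, adjusted p = 0.0300 in limma). Atp5o, the subunit that joins the stalk to the head, was at 575 and 709 TPM at low and at 458 and 455 TPM at high density (adjusted p = 0.223 in limma). The stalk subunits Atp5h and Atp5f1 had log2 fold changes of −0.59 and −0.39 without overlap, and neither was called.

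The small membrane subunits of complex V take part in joining ATP synthases into pairs along the cristae. Their 4 genes had values between −1.07 and −0.67, and in all 4 both high density libraries lay below both low density libraries (20.0% of all rows). Atp5k, subunit e, was at 542 and 875 TPM at low and at 349 and 308 TPM at high density. Both low density values exceeded both high density values although they differed from each other, and the mean was 2.16-fold lower (log2 fold change −1.07 ± 0.26 SE, adjusted p = 0.0339 in limma). Atp5l, subunit g, was at 43.0 and 42.8 TPM at low and 31.9 and 19.1 TPM at high density (adjusted p = 0.141 in limma). Atp5j2, subunit f, was at 1383 and 1966 TPM at low and 1096 and 894 TPM at high density (adjusted p = 0.0987 in limma). Atp5s, a distant coupling factor gene that is not a structural subunit, was the only complex V row with a positive value. It was weakly expressed, at 7.45 and 10.5 TPM at low and at 13.2 and 18.9 TPM at high density, without overlap and not called (log2 fold change 0.77 ± 0.32 SE, adjusted p = 0.173 in limma).

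The high density libraries lay on the same side for complexes I, II, III and V. Against the mean of the low density libraries, the median over all members was −0.45 in high density replicate 1 and −0.39 in high density replicate 2. All rows tested had a median of −0.023 and 0.27 in these libraries. For complex V the medians were −0.45 and −0.72, and for complex II they were −0.31 and −0.18. The low density libraries differed too: 56 of 73 members were higher in replicate 2 than in replicate 1, and 36 of 73 were higher in high density replicate 2 than in replicate 1.

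**Figure D3:**
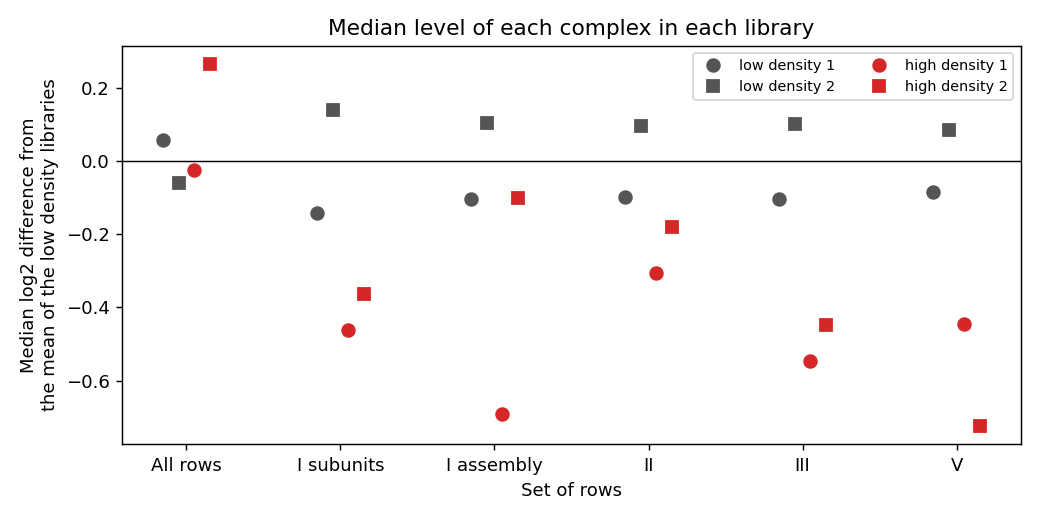
Median over the members of each complex, and over all rows tested, of the log2 difference of each library from the mean of the 2 low density libraries. Grey points are low density, red points high density, circles replicate 1 and squares replicate 2. Both high density points lie below both low density points for complexes I, II, III and V, while for all rows high density replicate 2 lies highest (0.27).

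Transcript length moved with these differences. By the GENCODE annotation, the members have short transcripts, with a median of 963 bases against 2690 bases for all rows tested. Across the 73 members the log2 fold change correlated with log2 length at Pearson r = 0.37 (Spearman rho = 0.42), shorter transcripts having the more negative values. The difference between the 2 low density libraries, replicate 2 minus 1, correlated with length at r = −0.56 (rho = −0.56). The difference between the 2 high density libraries, replicate 2 minus 1, did so at r = 0.40 (rho = 0.38), about as much as the difference between densities. Over the 10806 tested rows with a length, r was 0.19 for the densities (rho = 0.22), −0.26 for the low density pair (rho = −0.41) and 0.13 for the high density pair (rho = 0.097). These are descriptions across genes that share the same 4 libraries. The 39 members under 1000 bases had a median log2 fold change of −0.58, and the 34 longer ones −0.25. All 1223 tested rows under 1000 bases had a median of −0.15, and the 336 of these with a mean of at least 100 TPM had a median of −0.23. With length and GC content removed, the members' median was −0.31 and 59 of 73 stayed negative, but the calls on Atp5k, Atp5g1, Atp5g3 and Atp5j were lost (log2 fold changes from −0.98 to −0.77, adjusted p in limma from 0.0549 to 0.0839). The core subunits of complexes I and III and the F1 genes of complex V, which had the smaller changes, also have longer transcripts (medians of 1623, 1653 and 1171 bases) than the B and C group of complex I (732 bases) and the small subunits of complex III (535 bases). The part of length in the difference between these groups was not tested.

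**Figure D4:**
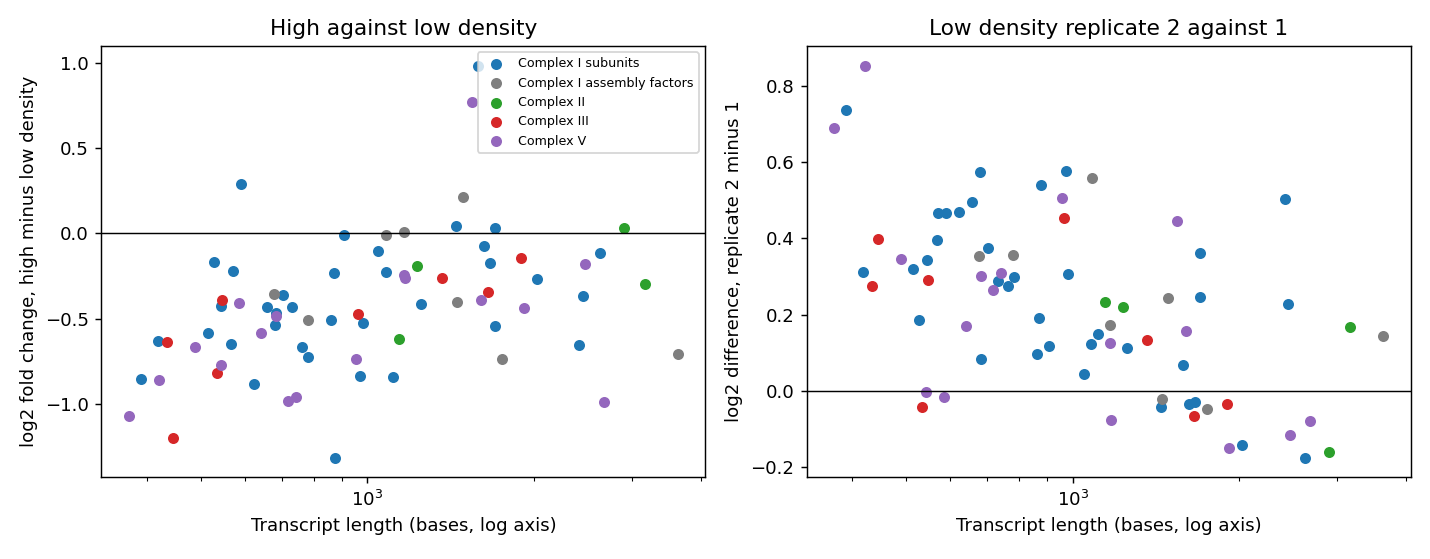
Transcript length (bases, log axis) of the 73 members against the log2 fold change between densities (left) and against the log2 difference between the 2 low density libraries (right), coloured by complex. In the right panel shorter transcripts lie higher, and in the left panel most members lie below 0 at every length, with Ndufv3 and Atp5s highest.

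Genes that serve these complexes but fall outside the member rule were taken from 7 lists, whose median log2 fold changes lay between −0.34 and 0.013. Of 10 tested genes for complex I assembly not named Nduf, 0 were called, and the median log2 fold change was −0.080. Foxred1, an assembly factor, was at 64.5 and 62.1 TPM at low and 37.5 and 48.0 TPM at high density (adjusted p = 0.205 in limma), and Nubpl, which delivers iron-sulfur clusters to complex I, was at 3.43 and 5.63 TPM at low and 6.37 and 9.88 TPM at high density (0.257). The 4 assembly factors of complex II had a median of −0.065, with 0 called, and their groups overlapped in all 4. The 2 of smallest p were Sdhaf4, with a log2 fold change of −0.38 ± 0.31 (SE, adjusted p = 0.485 in limma), and Sdhaf3, with 0.16 ± 0.28 (0.771).

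Of 7 genes for cytochrome c1 and complex III assembly, 0 were called, with a median of −0.18. Uqcc2, an assembly factor, was at 497 and 688 TPM at low and at 409 and 355 TPM at high density (adjusted p = 0.148 in limma). Cyc1, which encodes the catalytic cytochrome c1 and is a structural part of complex III outside the member rule, was at 336 and 329 TPM at low and 203 and 259 TPM at high density (0.190). Of 6 assembly and accessory genes of complex V, 0 were called, with a median of −0.098. Usmg5, a small membrane subunit of the ATP synthase, was at 238 and 389 TPM at low and 179 and 153 TPM at high density (adjusted p = 0.0747 in limma). Fmc1, an assembly factor, was at 154 and 208 TPM at low and 122 and 99.8 TPM at high density (0.120). Cyc1 and Usmg5, the structural subunits in these lists, lay without overlap below their low density level, which held for 20.0% of all rows. The assembly factors Uqcc2, Lyrm7 and Fmc1 did so too, and in each list the groups of the other 4 genes overlapped.

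Of 14 genes for cytochrome c and coenzyme Q synthesis, 0 were called, with a median of −0.11. The 2 of smallest p pointed opposite ways. Cycs, somatic cytochrome c, was listed at 6.12 and 5.59 TPM at low and 2.21 and 3.34 TPM at high density (log2 fold change −0.88 ± 0.35 SE, adjusted p = 0.162 in limma). How its reads were counted is not given, and its low level could depend on that. Coq8a, an atypical kinase of coenzyme Q synthesis, was at 3.70 and 2.76 TPM at low and 5.86 and 5.75 TPM at high density (0.70 ± 0.34 SE, adjusted p = 0.250 in limma).

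Of 15 tested regulators of mitochondrial biogenesis and mitochondrial gene expression, 0 were called, with a median of 0.013. Ppargc1a, the inducible coactivator PGC-1alpha, lay below the filter, at 0.0836 TPM in 1 library and listed at 0 in the others. Yy1, a zinc finger factor, was at 112 and 90.3 TPM at low and at 169 and 164 TPM at high density (log2 fold change 0.72 ± 0.24 SE, adjusted p = 0.0891 in limma). Lonp1, the matrix protease, was at 120 and 116 TPM at low and 193 and 147 TPM at high density (adjusted p = 0.224 in limma). Nrf1, named after its values were seen because its motif was searched, was at 30.5 and 26.5 TPM at low and 32.0 and 36.9 TPM at high density (0.588). Gabpa, named likewise for the ETS motif, was at 58.2 and 47.2 TPM at low and 65.4 and 86.3 TPM at high density (adjusted p = 0.263 in limma). In 5 of the 15 both high density libraries lay above both low density libraries (33.3%, against 34.7% of all rows). In 3 both lay below (20.0%, as for all rows).

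Among 6 tested carriers and channels for ADP, ATP and phosphate, which supply the ATP synthase, 0 were called, and the median was −0.34. In 3 of the 6 both high density libraries lay below both low density libraries, against 20.0% of all rows. The 2 of smallest p were among them. Slc25a5, the adenine nucleotide translocator of dividing cells, was at 1377 and 1341 TPM at low and at 922 and 722 TPM at high density (log2 fold change −0.74 ± 0.23 SE, adjusted p = 0.0751 in limma). Slc25a3, the phosphate carrier, was at 950 and 893 TPM at low and at 654 and 482 TPM at high density (−0.71 ± 0.23 SE, adjusted p = 0.0917 in limma). Across these 7 lists outside the member rule, counts of calls were 0 by limma, with 9 genes lower and 1 higher at an unadjusted p under 0.05. Over all rows tested, 7.76% were lower and 15.7% higher at that p.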

How the data were processed

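The values are TPM for each gene symbol and library, as deposited by the authors in 1 table. Each library sums to the same total, so sequencing depth is unknown. Per the labels, RNA was isolated with a column kit and strand-specific libraries were made by a commercial provider. The submitters' processing notes name mm9 and DESeq2 1.2.10 with no role. Aligner, counter and annotation: not given in the sources used here.

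Rows whose mean over the 4 libraries reached 1 TPM were tested on log2(TPM + 1) with limma 3.58.1 (R 4.3.3), with a variance trend, two-sided, high minus low density, and Benjamini-Hochberg adjustment. Folds are ratios of mean TPM. An exact permutation test of 2 against 2 libraries cannot go below p = 0.333. The script was tested on simulated data with noise of the same spread for every gene. Real libraries need not vary in that way, so this does not show how far the calls hold here.

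The members, the 7 pathway lists and the cell type markers were chosen with earlier results of these data known. Named by rule were every called member, in each complex the member of highest level and the 3 highest and 3 lowest changes, all of complex II, the c subunit genes and, per pathway list, the 2 of smallest p where 0 were called. Other members were named after their values were seen, to show the range of each class. Transcript lengths are those of principal transcripts in GENCODE M21. Alternatives were other pseudocounts, filters and scalings, no trend, a replicate block, leaving out each library and, added after seeing the data, removing length and GC content. The values of 1 member of complex I are not reported here on their own, and it stays in all counts and medians.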

Additional observations from a re-analysis of the deposited data

How the results depend on the processing

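Alternatives are given against the reported 731 rows and 7 members called, and median log2 fold changes of 0.12 for all rows and −0.43 for the members. No count or median moved past its limit with a pseudocount of 0.1 or 5. The replicate numbers are shared between the groups, and the labels do not say whether libraries of the same number belong together. The replicate differences of the 2 groups were hardly correlated (r = 0.042 over rows tested), which cannot settle this. With the replicate block 9 members were called, the 7 reported ones, Atp5e and Ndufb7, and 937 rows. With all rows kept, low values included, limma called 0 rows and 0 members, and so 0 in complexes I, III and V, with 2565 rows and 22 members at an unadjusted p under 0.05. With a filter at 5 TPM, 876 of 9377 rows tested were called (281 lower, 595 higher). Of the members 10 were called (9 lower, 1 higher), 4 in complex I, 2 in complex III and 4 in complex V. With median centring 314 rows were called (160 higher, 154 lower), the median of all rows was −0.063, and 3 members were called, 0 in complex III and 1 in complex V. The medians were then −0.62 for all members, −0.62 for complex I, −0.43 for complex II, −0.62 for complex III and −0.77 for complex V. With quantile normalisation 360 rows (216 higher, 144 lower) and 2 members were called, 1 in complex I, 0 in complex III and 1 in complex V, and the complex III median was −0.31. Without the trend 581 rows (144 lower, 437 higher) and 1 member were called, the member in complex I, with 0 in complexes III and V. With length and GC content removed, 466 rows and 3 members were called, 0 in complex V, with medians of −0.31 for all members, −0.26 for complex I, −0.29 for complex III and −0.38 for complex V. The cause of these shifts was not tested.

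Leaving out 1 library at a time, where the lone library is assumed to vary like the other group, gave 233 to 3270 rows called and a median of all rows from −0.023 to 0.27. Members called ranged from 0 (without low density replicate 2) to 26 (without high density replicate 1), with medians from −0.55 to −0.33. Calls ranged from 0 to 12 in complex I (medians −0.55 to −0.27), 0 to 5 among the Ndufaf factors, 0 to 1 in complex II (−0.34 to −0.15), 0 to 4 in complex III (−0.62 to −0.31) and 0 to 10 in complex V (−0.72 to −0.45). The median of the Ndufaf factors ran from −0.69 (without high density replicate 2) to −0.10 (without high density replicate 1). The highest counts of calls all came from leaving out a high density library, where calls over all rows rose as well. These counts join lower and higher calls, so they do not show how the members differ from all rows. Some genes with small changes turned direction. Median centring gave −0.14 for Ndufa9, −0.18 for Ndufaf5, −0.15 for Sdha and −0.028 for Sdhaf3. Quantile normalisation gave −0.21 for Ndufaf5, −0.0028 for Ndufaf3 and −0.031 for Sdhaf3, and removing length and GC content gave 0.13 for Ndufaf6. With 1 library left out, log2 fold changes ran from −0.17 to 0.26 for Ndufa9, −0.12 to 0.54 for Ndufaf3, −0.44 to 0.46 for Ndufaf5, −0.34 to 0.32 for Ndufaf6, −0.049 to 0.11 for Sdha, −0.085 to 0.40 for Sdhaf3 and −1.001 to 0.22 for Uqcrh.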
